A study of Mus musculus with 2 samples.

Results

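Mir140 and Mir455 are the miRNA genes best known from cartilage. They were described here in limb tissue of mouse embryos at embryonic day 10.5, before overt cartilage forms. Their rows were taken by Ensembl identifier, ENSMUSG00000065439 for Mir140 and ENSMUSG00000070102 for Mir455, and both genes were found among the 1973 gene rows of each table. The series holds 1 group with 2 small-RNA libraries of mixed-sex B6NCrl embryos, with no treatment or mutant allele named in the labels. Replicate 2 was made from a pool of 51 embryos and replicate 1 from a pool of 69, so variation between single embryos was averaged within each pool. Every comparison below is between genes or between these 2 libraries. The smallest 2-sided p that an exact sign-flip test can give with 2 libraries is 0.5, so values are given with their spread and without a test.

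A miRNA is cut from a hairpin precursor, and the mature strand guides an Argonaute protein to messenger RNAs that match its seed, the stretch near its 5′ end. Mir140 lies within Wwp2, which encodes an E3 ubiquitin ligase, and Mir455 within Col27a1, which encodes a fibrillar collagen of cartilage. SOX9, the transcription factor that directs mesenchymal cells to become chondrocytes, is known to raise Mir140, and mice without Mir140 have short stature and craniofacial defects. Histone deacetylase 4 and the aggrecan-cleaving protease ADAMTS5 are among the known targets of miR-140, and miR-455 is known to act on HIF-2α in chondrocytes.

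The mature sequences are shown because they decide which reads could be placed at the 2 genes and whether other miRNAs have the same seed. They were taken from RefSeq (GRCm38.p6), which had an entry for both genes, and capitals mark bases 2 to 8, the seed.
miR-140-3p: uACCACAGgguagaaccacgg
miR-455-5p: uAUGUGCCuuuggacuacaucg
miR-455-3p: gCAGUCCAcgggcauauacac
The first lies at chr8:107551288-107551308, the second at chr4:63256867-63256888 and the third at chr4:63256904-63256924, all on the plus strand. In the hairpin of Mir140, shown to place the 3p strand within the counted locus, capitals mark miR-140-3p at bases 45 to 65 of 70.
Mir140 hairpin: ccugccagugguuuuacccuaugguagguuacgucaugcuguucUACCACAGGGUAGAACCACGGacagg
None of these 3 mature sequences was listed for another gene among the 1738 mature entries of 1058 genes in that table. The search did not cover miR-140-5p, the other strand of Mir140, so it says nothing of the reads of that strand. The members share no seed with each other in these entries. The seed of miR-140-3p was found in 1 other gene, Mir497b, and that of miR-455-5p in 1 other gene, Mir5129. The seed of miR-455-3p was found in no other entry. These sequences are shown to let the shared seed be read against its differing remainder.
miR-497b: cACCACAGugugguuuggacgugg
miR-5129-3p: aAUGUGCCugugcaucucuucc
Mir497b (chr11:70234763-70234786, minus strand) had 3 sense counts in replicate 2 and 2 in replicate 1, and Mir5129 (chr2:45023110-45023131, minus strand) had 0 in both. With a floor of 3 counts, such a 0 leaves room for 0.839 CPM or less in replicate 2 and for 0.838 CPM or less in replicate 1. The tables give 1 count per hairpin, so the 5p and 3p strands of a member could not be separated.

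In the GENCODE M21 annotation of GRCm38, Mir140 covers bases 107551244 to 107551313 of chromosome 8, on the plus strand like its host. It lies 114.9 kb from the start of Wwp2 and 7.28 kb before its end. Of the 4 Wwp2 transcripts that span the hairpin, the 3 protein-coding ones carry it in an intron, which is intron 16 of the transcript Wwp2-201. The fourth is a retained-intron transcript whose single exon covers it. Mir455 covers bases 63256851 to 63256932 of chromosome 4, on the plus strand of Col27a1. It lies 42.8 kb from the start of the host and in an intron of each of the 4 transcripts that span it, which is intron 10 of the protein-coding transcript Col27a1-201. Only 127 bases separate its 3′ end from the next exon, against 963 bases for Mir140. Neither gene has another annotated miRNA gene within its host. Transcripts of Wwp2 and Col27a1 were not analysed here.

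Sense counts in genes totalled 3576482 in replicate 2 and 3581672 in replicate 1, and these totals scaled counts to counts per 1000000 (CPM). They made up 49.5% of all reads in replicate 2 and 35.6% in replicate 1. Genes with 10 or more counts in each library, 348 of the 1973, were called detected. The tissue label was limb and named no cell type. All 7 mesenchymal markers were detected, summing to 28717 CPM in replicate 2, against 24188 CPM in replicate 1, with Mir214 the highest. Epithelial and endothelial markers, given below, were also detected. Of the skeletal and heart muscle markers, 4 of 8 measured genes were detected. Mir206 was the highest of them in mean CPM and in replicate 2, and Mir208b in replicate 1. Mir1a-1, Mir133a-1 and Mir133a-2 were at 0 in both libraries, but their mature sequences are encoded at more than 1 locus. Reads placed at several loci were counted at none, so these zeros set no limit on those sequences. In whole limb tissue, a larger number of expressing cells and more RNA per cell cannot be told apart, which holds for every level below.

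Mir140 was an abundant miRNA gene of the limb bud, and its level differed widely between the libraries. It had 17048 sense counts in replicate 2 and 7083 in replicate 1. These counts correspond to 4767 CPM in replicate 2 (exact binomial 95% interval 4696 to 4839) and 1978 CPM in replicate 1 (1932 to 2024). The intervals cover counting error only and leave out variation between pools and library preparations. They treat reads as independent, which amplified reads are not, so they may be too narrow. Replicate 2 was the higher library, and the intervals did not overlap. Mir140 took 0.477% of the counts in replicate 2 and 0.198% in replicate 1, a mean of 3372 ± 1972 CPM (SD, n = 2) with an SD of 58.5% of the mean. It ranked 35th in replicate 2 and 64th in replicate 1, with 89.9% of the detected genes below it in replicate 2 and 81.6% in replicate 1. The most abundant gene, Mir335, was 39.2-fold above Mir140 in replicate 2 and 84.0-fold in replicate 1.

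Mir455 was less abundant and steadier. It had 2484 sense counts in replicate 2 and 3100 in replicate 1. In CPM it reached 694.5 in replicate 2 (667 to 722) and 865.5 in replicate 1 (835 to 897), where replicate 1 was the higher library. This was 0.0695% of the counts in replicate 2 and 0.0866% in replicate 1, a mean of 780 ± 121 CPM (SD, n = 2) with an SD of 15.5% of the mean. It ranked 103rd in replicate 2 and 107th in replicate 1, so its rank was slightly better in the library in which its CPM was lower. Mir455 lay 5.63-fold above the median detected gene in replicate 2 and 5.93-fold in replicate 1. No antisense count was found at either member in either library.

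**Figure D1:**
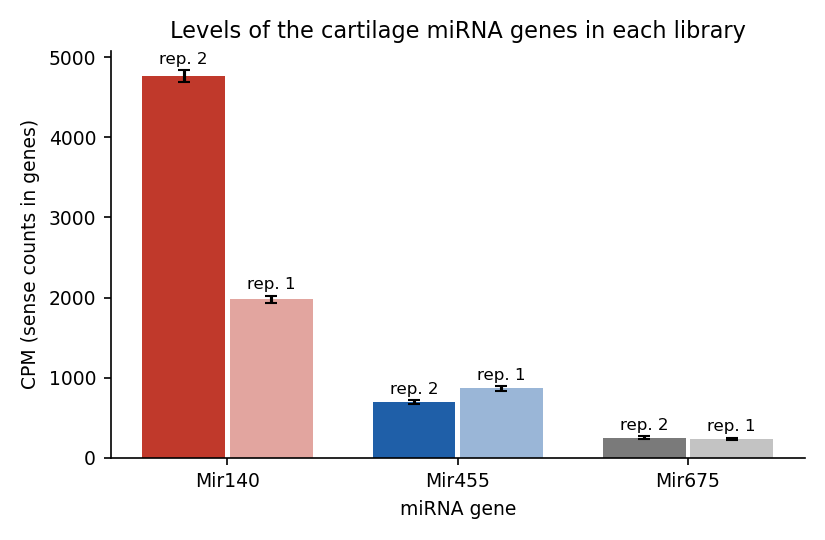
Bars give CPM of sense counts for Mir140, Mir455 and Mir675 in replicate 2 (darker, left) and replicate 1 (lighter, right), with exact binomial 95% intervals. In replicate 2 Mir140 stands at 4767, Mir455 at 694.5 and Mir675 at 251 CPM, and in replicate 1 they stand at 1978, 865.5 and 233 CPM.

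**Figure D2:**
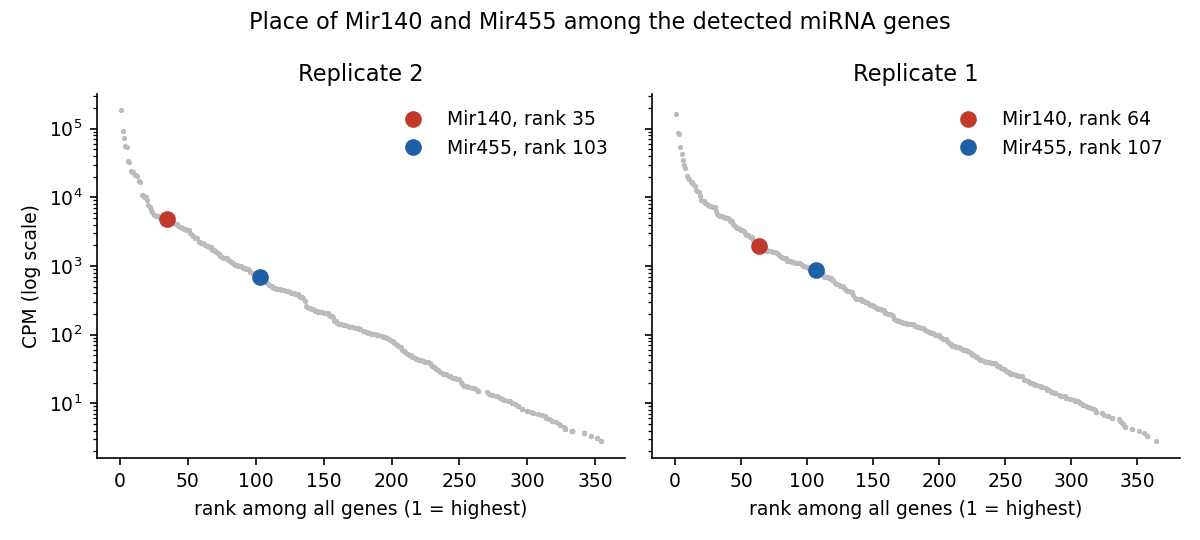
CPM on a log scale against rank for the 348 detected genes, replicate 2 on the left and replicate 1 on the right, with both members marked. In replicate 2 Mir140 is at rank 35 and Mir455 at rank 103, and in replicate 1 Mir140 is at rank 64 and Mir455 at rank 107.

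Genes next to the members in mean CPM were used to ask how far rank was settled. Mir106a, Mir21a and Mir30d stood directly above Mir140 and Mir182, Mir125a and Mir382 directly below it. In replicate 2 these 6 genes had 2235 to 3470 CPM and all lay below Mir140. In replicate 1 they had 3352 to 4035 CPM and all lay above it. All 6 means were within 1 SD of that of Mir140, so the place of Mir140 among them was not resolved. Around Mir455 stood Mir96, Mir25 and Mir200b above and Mir433, Mir154 and Mir92-2 below. They had 306 to 781 CPM in replicate 2 and 829.8 to 965 CPM in replicate 1. The order relative to Mir455 differed between the libraries for 5 of these 6 genes, and 5 of 6 means lay within 1 SD of that of Mir455. Over the 249 other genes with at least 100 counts on average, the ranges of the 2 libraries overlapped the range of Mir140 for 36 genes and that of Mir455 for 21.

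Mir140 exceeded Mir455 in both libraries, by unequal amounts. Ratios of reads within a library do not depend on the scaling, but capture of the different sequences was not measured. The excess was 6.86-fold in replicate 2 and 2.28-fold in replicate 1. Mir140 made up 87.3% of the summed counts of the members in replicate 2 (exact binomial 95% interval 86.8 to 87.7) and 69.6% in replicate 1 (68.7 to 70.5). The log2 ratio of Mir140 to Mir455 was larger by 1.59 in replicate 2 than in replicate 1 (95% interval from counting error 1.50 to 1.67), which as an odds ratio is 3.004 (2.83 to 3.19). The members together held 0.546% of the counts in replicate 2 and 0.284% in replicate 1, a mean of 0.415% ± 0.185 (SD, n = 2).

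The difference between the libraries was large for Mir140 and, relative to other genes, near the middle for Mir455. On the log2 scale with a prior count of 1, Mir140 was higher in replicate 2 than in replicate 1 by 1.27 (counting interval 1.23 to 1.31), or 2.41-fold. Of 250 genes with at least 100 counts on average, 3 (1.2%) were over 2-fold higher in replicate 2, and Mir140 was 1 of them. Mir206, a skeletal muscle miRNA gene with 350 counts in replicate 2 and 96 in replicate 1, was the only one of the 250 with a higher ratio. The third was Mirlet7i. Another 24 genes (9.6%) were over 2-fold lower in replicate 2, led by Mir5126 at -3.39, Mir1247 at -3.20 and Gm26117 at -3.13. This split moved with the scaling, to 6 higher and 14 lower with TMM factors or size factors and to 18 higher and 9 lower per all reads of the library.

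Mir455 had a log2 ratio of -0.32 (counting interval -0.39 to -0.24), which taken alone is opposite in sign to that of Mir140. The median of the 250 genes was -0.27, however, and 66.8% of them had a ratio below 0. Relative to that median Mir140 lay at 1.54 (1.50 to 1.58) and Mir455 at -0.05 (-0.12 to 0.03). Mir455 stood 141st of 250 from the highest ratio. The negative sign was kept with edgeR's TMM factors, at -0.04 (-0.11 to 0.04), and with DESeq2's size factors, at -0.04 (-0.12 to 0.03), and in both cases the counting interval included 0. Scaled to all reads of the library the sign was positive, at 0.16 (0.08 to 0.24). Mir140 was higher in replicate 2 under each of these scalings, from 1.27 to 1.75. An opposite change of the members was thus not settled. The shift of Mir140 relative to Mir455 does not depend on the scaling, which cancels in a ratio within a library.

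**Figure D3:**
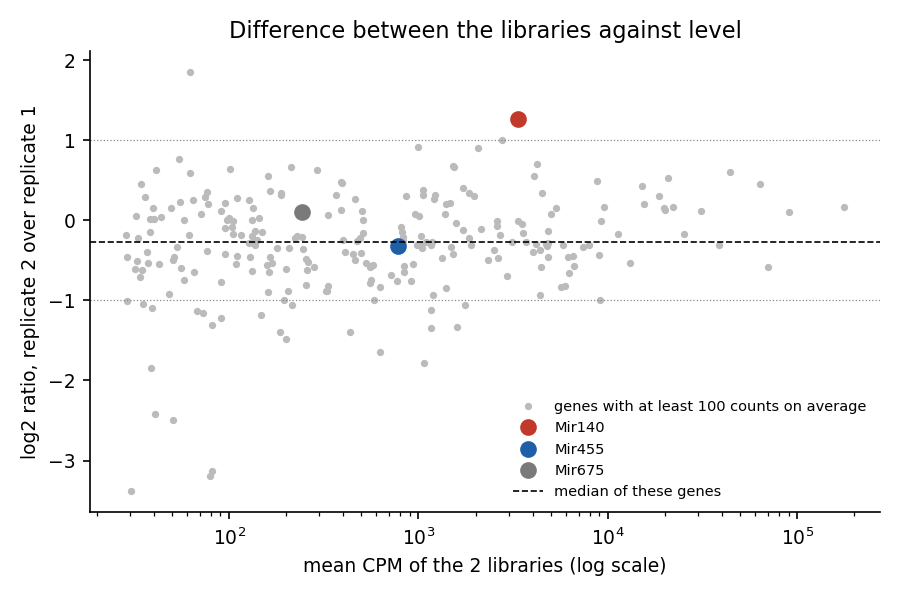
Log2 ratio of replicate 2 over replicate 1 against mean CPM (log scale) for 250 genes (mean count of 100 or more), with the median (dashed) and 2-fold bounds (dotted). Mir140 at 1.27 is the second highest point and Mir455 at -0.32 lies next to the median of -0.27.

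**Figure D4:**
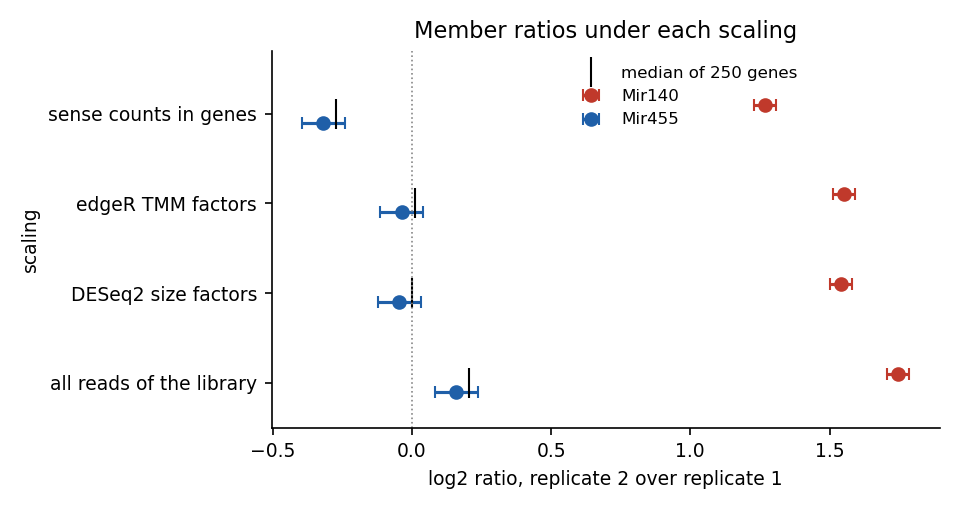
Log2 ratio of replicate 2 over replicate 1 for Mir140 and Mir455 under each scaling, with 95% counting intervals and the median of 250 genes as a black bar. The sign of Mir455 differs between scalings. Scaling shifts every gene by the same amount, so the distance from the median is fixed, at -0.05 for Mir455 and 1.54 for Mir140.

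Likeness to a member was measured as the absolute difference of log2 ratios over the 2 libraries, a description that rests on 2 points per gene. Among the 249 other genes with at least 100 counts on average, none came within 0.1 of Mir140. The nearest of these were Mirlet7i at 1.01, Mir125b-1 at 0.91, Mir181b-2 at 0.90, Mir452 at 0.77 and Mirlet7g at 0.70. Genes with fewer counts could lie nearer, such as Mir199a-1 at 1.15 and Mirlet7b at 1.08. Mirlet7i, whose family increases as embryonic cells differentiate, had 3686 CPM in replicate 2 and 1834 CPM in replicate 1. Around Mir455, 39 of the 249 genes lay within 0.1, the nearest being Mir23a, Mir341, Mir34c, Mir674 and Mir496a.

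Other miRNAs tied to the skeleton were read from a list of 21 genes, of which 17 were detected and 15 had at least 100 counts on average. The median log2 ratio of these 15, with Mir140 and Mir455 among them, was 0.08, beside -0.27 for all 250 genes. Of the 15, Mir140 was the only one over 2-fold higher in replicate 2 and Mir1247 the only one over 2-fold lower. Among all 250 genes, 3 (1.2%) were over 2-fold higher and 24 (9.6%) over 2-fold lower. Among genes linked to SOX9 or to cartilage matrix, Mir675, which is cut from the H19 transcript, had 251 CPM in replicate 2 and 233 CPM in replicate 1. Its log2 ratio was 0.11 (-0.03 to 0.24), and relative to the median of the 250 genes it lay at 0.38 (0.24 to 0.51), so that the interval included 0 in the first case and not in the second. Mir1247, which acts on SOX9 in human chondrocytes, had 55 counts in replicate 2 and 514 in replicate 1. Mir145a, which also acts on Sox9, had 81.9 CPM in replicate 2 and 67.0 CPM in replicate 1. For Mir495, which acts on SOX9 in human mesenchymal stem cells, the values were 87.8 CPM in replicate 2 and 128 CPM in replicate 1. Mir27b, which acts on the collagenase MMP13 in human chondrocytes, had 1416 CPM in replicate 2 and 1342 CPM in replicate 1. The most abundant gene of the list was Mir30a, at 5313 ± 398 CPM (SD, n = 2).

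Of the genes linked to bone formation, Mir204 and Mir211, which act on Runx2, the transcription factor of osteoblasts, had 34.1 ± 7.54 and 51.4 ± 11.4 CPM (SD, n = 2). Mir138-2 had 77.1 ± 7.59 CPM. Mir2861, described in osteoblast differentiation, had no count, and neither did Mir365-1, whose mature product acts on histone deacetylase 4. Mir365-1, Mir365-2, the Mir194 genes and the Mir138 genes share a mature sequence with another gene. Reads placed at several loci were counted at none, so their counts may be too low. Mir140 alone took 35.97% of the summed CPM of the 21 genes in replicate 2 and 19.5% in replicate 1. The share of Mir455 was 5.24% in replicate 2 and 8.54% in replicate 1.

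Marker miRNAs of some other cell types and stages also differed between the libraries, and their part in the difference of Mir140 was not tested. All 5 let-7 genes with at least 100 counts on average were higher in replicate 2, as were 83 of all 250 genes. The 10 let-7 genes measured summed to 9769 CPM in replicate 2, against 5732 CPM in replicate 1. At least 4 of these 10 genes share a mature sequence with another gene, so this sum is uncertain. The Mir302 and Mir290 clusters mark early embryonic cells. All 7 of their genes with at least 100 counts on average were over 2-fold lower in replicate 2, as were 24 (9.6%) of all 250 genes. The ratios of these 7 genes ran from -2.49 to -1.22 and move with the scaling. With TMM factors, size factors or all reads they were less negative, and not all 7 stayed over 2-fold lower. The number among all 250 genes fell too, to 14 with TMM or size factors and 9 per all reads. The list of both clusters, with 10 of 11 measured genes detected, summed to 2251 CPM in replicate 2, against 6211 CPM in replicate 1. The ratio of Mir140 lay above that of all 6 mesenchymal genes with at least 100 counts on average, which ran from -0.76 for Mir22 to 0.68 for Mir199b. Relative to the mesenchymal sum, Mir140 stood at 16.6% in replicate 2 and 8.18% in replicate 1, and Mir455 at 2.42% in replicate 2 and 3.58% in replicate 1. The Mir199 genes in that sum share mature sequences, so it is uncertain.

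Epithelial genes, with 7 of 7 detected and led by Mir205, summed to 10775 CPM in replicate 2, against 12334 CPM in replicate 1. Mir126a of the endothelium had 23683 CPM in replicate 2 and 26707 CPM in replicate 1. Muscle genes summed to 133 CPM in replicate 2, against 84.0 CPM in replicate 1. Most of this sum in replicate 2 was Mir206, with 97.9 CPM there and 26.8 CPM in replicate 1. The other detected muscle genes, Mir208a, Mir208b and Mir499, were lower in replicate 2, with Mir208b at 19.0 CPM there and 38.5 CPM in replicate 1. Erythroid genes, led by Mir451a, summed to 269 CPM in replicate 2, against 480 CPM in replicate 1, with 3 of 3 detected. Leukocyte genes, led by Mir155, summed to 628 CPM in replicate 2, against 756 CPM in replicate 1, with 3 of 4 measured genes detected. Neural genes, led by Mir7-1, summed to 376 CPM in replicate 2, against 418 CPM in replicate 1, with 7 of 12 measured genes detected. On the log2 scale the sum ratio was -0.19 for epithelial, -0.17 for endothelial, -0.267 for leukocyte and -0.15 for neural genes. The median ratio of the 250 single genes was -0.271, which is a different measure from the ratio of a sum. The like measure is the median over the genes of a list with at least 100 counts on average. It was -0.35 for epithelial genes, below that median, and -0.284 for leukocyte genes, next to it. Neural genes, at -0.19, and Mir126a, at -0.17, lay above it. The erythroid sum ratio was -0.84. The muscle, leukocyte and neural sums are incomplete. No shared mature sequence was found for the epithelial and erythroid genes, but the sequence entries searched lack some strands, so these sums may also be too low. Of the 12 measured neural genes, at least 8 share a mature sequence with another gene, since the sequence entries searched lack some strands. The muscle genes at 0 carry the limit given above, and Mir142, Mir9-1 and Mir1a-2 were not analysed here. Mir140 and Mir455 were not ranked against any of these lists.

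**Figure D5:**
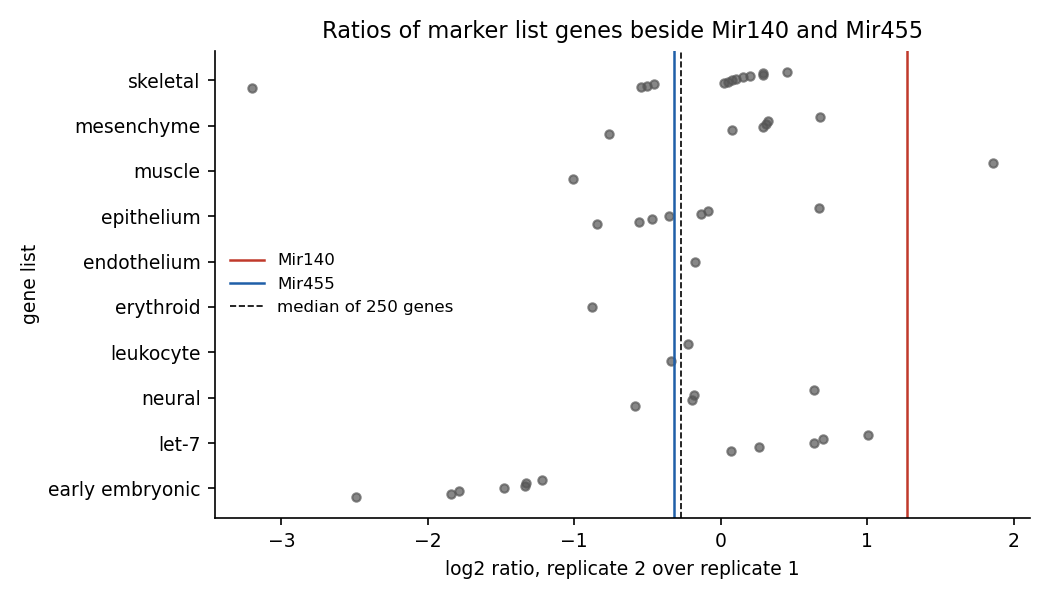
Log2 ratio of replicate 2 over replicate 1 for genes of each list with at least 100 counts on average (points), with Mir140 and Mir455 as vertical lines and the median of 250 genes dashed. Mir206 of the muscle list is the only point right of Mir140, and the early embryonic genes lie from -2.49 to -1.22.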

How the data were processed

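Small RNA was sequenced from 2 pools of limb tissue. The deposited tables, 1 per library, hold raw read counts per gene in 3 columns (both strands, sense, antisense) and 4 rows for reads in no gene. Per the deposited readme texts, the authors aligned reads to mm10 and counted over GENCODE M4. For the aligner, counter and trimming, nothing is stated in the labels or readme texts. Reads that mapped to several loci, which the tables' layout places outside all genes, made up 31.2% of mapped reads for replicate 2 and 32.3% for replicate 1. Of 1973 identifiers, 1894 matched GENCODE M21 (same build), all as miRNA genes.

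Sense counts were scaled to CPM over gene rows. Ratios between libraries (replicate 2 over replicate 1) used a prior count of 1 and genes with at least 100 counts on average, with 95% exact conditional binomial intervals. The interval for the difference of Mir140-to-Mir455 ratios used a normal approximation, with an exact odds ratio beside it. Named genes were the members, the skeletal list and 3 neighbours in mean CPM on each side. They also included the 5 nearest ratios, the 3 most extreme ratios in each direction, leading genes of marker lists and genes sharing a seed. Others, among them Mir1a-1, Mir133a-1, Mir133a-2, Mir133b, Mir22, Mir199b and Mir335, were named after their values were seen. Members and lists were chosen with earlier results of these data known. Alternatives were edgeR's TMM factors, DESeq2's size factors, all reads, both strands, other prior counts and count minimums, and each library alone. The ratio code was tested on simulated data. Tools were Python 3.11.15, numpy 2.4.6, pandas 2.3.3, scipy 1.17.1, R 4.3.3, edgeR 4.0.16 and DESeq2 1.42.0.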

Additional observations from a re-analysis of the deposited data

How the results depend on the processing

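Of 63 values recomputed under an alternative, 44 stayed within the spread between the libraries, the counting interval or 1.5 times the count. Another 18 moved further and 1 changed sign. Some of the 44 were fixed by arithmetic and say nothing of stability. Leaving out 1 of 2 libraries cannot move a mean by more than the SD. Counting both strands cannot move the ratio between the members, which had no antisense count. The log2 ratio of Mir140 was 1.55 with TMM factors, 1.54 with DESeq2's size factors and 1.75 per all reads, in place of 1.27. That of Mir455 was -0.036 with TMM factors, -0.045 with size factors and 0.16 per all reads, in place of -0.32. Per all reads, Mir455 averaged 326 per 1000000 and the members together 0.186%, because that total is larger. With both strands counted, Mir455 ranked 115th in place of 108th. With 1 library left out, mean CPM ranged from 1978 to 4767 for Mir140 and from 694.5 to 865.5 for Mir455, rank from 35 to 64 and from 103 to 107, the members' share from 0.284% to 0.546% and their log2 ratio from 1.19 to 2.78. Genes over 2-fold higher in replicate 2 numbered 6 with TMM or size factors, 18 per all reads and 8 at a minimum of 10 counts, in place of 3. Genes over 2-fold lower numbered 14, 9 and 46 under these settings and 7 at a minimum of 1000 counts, in place of 24. No paired analysis was possible because there is 1 group. Ratios between the libraries have no value with 1 library left out. With 2 pools, the spread has a single degree of freedom, and the counting intervals of both members' CPM were narrower than the difference between the libraries.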
